A study of Mus musculus with 8 samples.

Results

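The Slc25 genes encode the mitochondrial carriers, the solute carrier family that sits mainly in the inner mitochondrial membrane. Its members were taken as all genes whose platform symbol is Slc25a followed by a number, which gave 46 of the 19938 genes measured. Each gene was read from 1 probe set, the brightest of those that carry its symbol alone. RNA came from flow-sorted bone marrow cells of C57BL/6J mice, in a series titled for HMGA2 overexpression. The 4 groups, of 2 arrays each, were KLS cells of ∆Hmga2 mice (titled TG), KLS cells of wild-type mice (WT), and MEP cells of either genotype. Each array held an independent RNA preparation pooled from 4 or 6 mice, and the sources used here give neither the promoter that drives the transgene nor the age of the mice. KLS is the usual name of the lineage-negative, Sca-1-positive, c-Kit-positive fraction that holds stem and multipotent cells, and MEP that of megakaryocyte-erythroid progenitors.

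A carrier of this family is a small protein built of repeated membrane-spanning units that exchanges a metabolite, nucleotide, cofactor or ion between the cytosol and the matrix. The carriers thereby link glycolysis, amino acid breakdown, the citric acid cycle, ATP export and haem synthesis across a membrane that is otherwise tight. In erythroid cells the family is known above all for the mitoferrins, which bring iron to the matrix for haem and iron-sulphur clusters, and for the glycine carrier Slc25a38, which serves the first step of haem synthesis.

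All values are log2 levels after quantile normalization, and levels of different probe sets are not set against each other. A difference was called when limma's adjusted p (Benjamini-Hochberg over all 19938 genes) was under 0.05. Replicate arrays correlated across genes at 0.981 to 0.988. In none of the 4 groups did a carrier lie over 2-fold apart between the replicates (0 of 46), where 111 to 421 of all 19938 genes did. The median gap between replicates was 0.16 to 0.20 for the carriers and 0.15 to 0.19 for all genes. Hmga2 itself (probe set 10372796) had levels of 7.35 and 7.11 in TG KLS cells against 6.85 and 7.12 in WT KLS cells, and of 6.95 and 6.99 in TG MEP cells against 6.70 and 6.74 in WT MEP cells. The groups overlapped in KLS but not in MEP cells, and the difference of 0.25 ± 0.11 (SE) over both cell types was not called (adjusted p = 0.999, limma). Of 8 measured markers of stem and multipotent cells, 8 were higher in KLS than in MEP cells and 5 were called (1.20% of all genes were called higher). Their median difference was 1.46. Of 10 measured erythroid markers, 10 were lower in KLS cells and 2 were called (0.396% of all genes were called lower), by a median of only -0.32. Megakaryocyte markers ran the other way from the erythroid ones: 4 of 5 measured were higher in KLS cells and 0 were called. Unadjusted p was under 0.05 in limma for 3 of them (8.02% of all genes). Their mean log2 level was 6.67 to 6.81 on KLS arrays against 6.10 to 6.48 on MEP arrays. All 5 measured primary granule markers were called higher in KLS cells, with a median difference of 3.28. The array of WT MEP replicate 1 stood apart by its lymphoid markers, whose 11 measured genes had a mean log2 level of 8.14 there, against 6.46 to 6.64 on the other MEP arrays. The stem and multipotent markers were also higher there, at 7.28 against 6.65 to 6.72 on the other MEP arrays and 8.17 to 8.44 on KLS arrays. The same held for primary granule markers, at 7.44 against 6.56 to 6.97 on the other MEP arrays and 9.40 to 10.66 on KLS arrays. Mature neutrophil markers were lower on both TG MEP arrays than on both WT MEP arrays for 9 of 9 measured genes, where 17.2% of all genes lay so, with a log2 summed level of 12.88 and 12.91 in TG MEP cells against 14.26 and 13.58 in WT MEP cells, and of 14.11 and 14.17 in TG KLS cells against 14.02 and 14.70 in WT KLS cells. Fewer cells of a type and less RNA per cell cannot be told apart in such pools.

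The cell types differed in 3 carriers. Slc25a21, the oxodicarboxylate carrier that exchanges 2-oxoadipate from lysine and tryptophan breakdown for 2-oxoglutarate, was lower in KLS than in MEP cells. Slc25a32, a carrier of folate and FAD, was lower in KLS cells as well. Slc25a27, a relative of the uncoupling proteins also known as UCP4, was higher in KLS cells. These 3 made up 6.52% of the 46 carriers, where 1.60% of all genes were called between the cell types (1.20% higher and 0.396% lower in KLS cells). The genotype gave no called carrier in either cell type.

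Slc25a21 (Entrez gene 217593, probe set 10400483) varied most of all 46 carriers over the 8 arrays, with an SD of 0.587 against a median of 0.204 for the carriers and 0.176 for all genes. Its log2 levels were 7.83 and 8.08 in TG KLS cells against 7.14 and 7.24 in WT KLS cells, with 8.48 and 8.69 in TG MEP cells against 8.37 and 8.47 in WT MEP cells. Every KLS array lay below every MEP array, and within KLS cells both TG arrays lay above both WT arrays. Averaged over the genotypes (mean ± SD, n = 4 for each cell type), KLS cells had 7.57 ± 0.45 and MEP cells 8.50 ± 0.13, which differed by -0.93 ± 0.11 (SE) or 1.91-fold (adjusted p = 0.0103, limma). Leaving out TG KLS replicate 1, TG MEP replicate 1 or TG MEP replicate 2 brought the adjusted p to 0.0519, 0.0629 and 0.0559, past the threshold, with differences between -0.996 and -0.87 over all 8 omissions. In the RefSeq table of GRCm38.p6 the gene has a pair of transcription starts on the minus strand of chromosome 12. The 250 bases before each start, at chr12:57197473-57197722 and chr12:57160644-57160893, are shown because this carrier differs most between the cell types.
Slc25a21, upstream start: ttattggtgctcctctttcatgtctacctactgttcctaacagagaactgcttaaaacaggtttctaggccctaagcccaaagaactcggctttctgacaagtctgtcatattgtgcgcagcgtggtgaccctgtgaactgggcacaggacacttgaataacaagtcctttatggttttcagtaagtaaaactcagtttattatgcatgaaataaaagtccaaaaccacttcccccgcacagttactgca
Slc25a21, downstream start: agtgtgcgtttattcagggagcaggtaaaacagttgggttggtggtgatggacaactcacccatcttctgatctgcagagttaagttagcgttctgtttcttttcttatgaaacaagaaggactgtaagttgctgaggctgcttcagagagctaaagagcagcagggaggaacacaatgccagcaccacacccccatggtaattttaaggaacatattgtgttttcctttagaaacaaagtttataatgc
Neither window holds the letters AGATAA on either strand, where the first letter may also be T and the last may also be G, the 4 core forms read by GATA factors such as the erythroid Gata1. Of the 32851 promoters in the table, 26.5% hold at least 1 of these 4 forms in the same 250 bases. Among the carriers 36 of 46 were in the table, with 46 promoters, of which 6 (13.0%) held a match: those of Slc25a4, Slc25a5, Slc25a12, Slc25a28, Slc25a43 and Slc25a53. A match describes the letters alone, and none of these 6 genes was called in any comparison.

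Slc25a32 (Entrez gene 69906, probe set 10428328) had 7.94 and 7.94 in TG KLS cells against 7.61 and 7.56 in WT KLS cells, with 8.43 and 8.62 in TG MEP cells against 7.96 and 8.31 in WT MEP cells. The KLS arrays lay below the MEP arrays, but the TG KLS arrays almost reached the lower WT MEP array. KLS cells averaged 7.76 ± 0.21 and MEP cells 8.33 ± 0.28 (SD, 4 arrays each), which differed by -0.57 ± 0.11 (SE) or 1.48-fold (adjusted p = 0.0487, limma). The call rested close to the threshold: among the 8 fits that left out 1 array, it was made only without WT MEP replicate 1 (adjusted p = 0.0200), and the other fits gave up to 0.171. It was also lost on the deposited values without quantile normalization (adjusted p = 0.0574, limma) and with median centring (adjusted p = 0.0808, limma).

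Slc25a27 (Entrez gene 74011, probe set 10451039) was read at 7.13 and 7.26 in TG KLS cells against 7.23 and 7.16 in WT KLS cells, with 6.43 and 6.60 in TG MEP cells against 6.78 and 6.51 in WT MEP cells. All 4 KLS arrays lay above all 4 MEP arrays, and the genotypes overlapped in both cell types. KLS cells averaged 7.19 ± 0.06 and MEP cells 6.58 ± 0.15 (SD, 4 arrays each), which differed by 0.61 ± 0.11 (SE) or 1.53-fold (adjusted p = 0.0362, limma). Without WT MEP replicate 1 the adjusted p was 0.0188, and each of the other 7 single omissions took it past the threshold, to at most 0.154, as did median centring (adjusted p = 0.0717, limma).

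**Figure D1:**
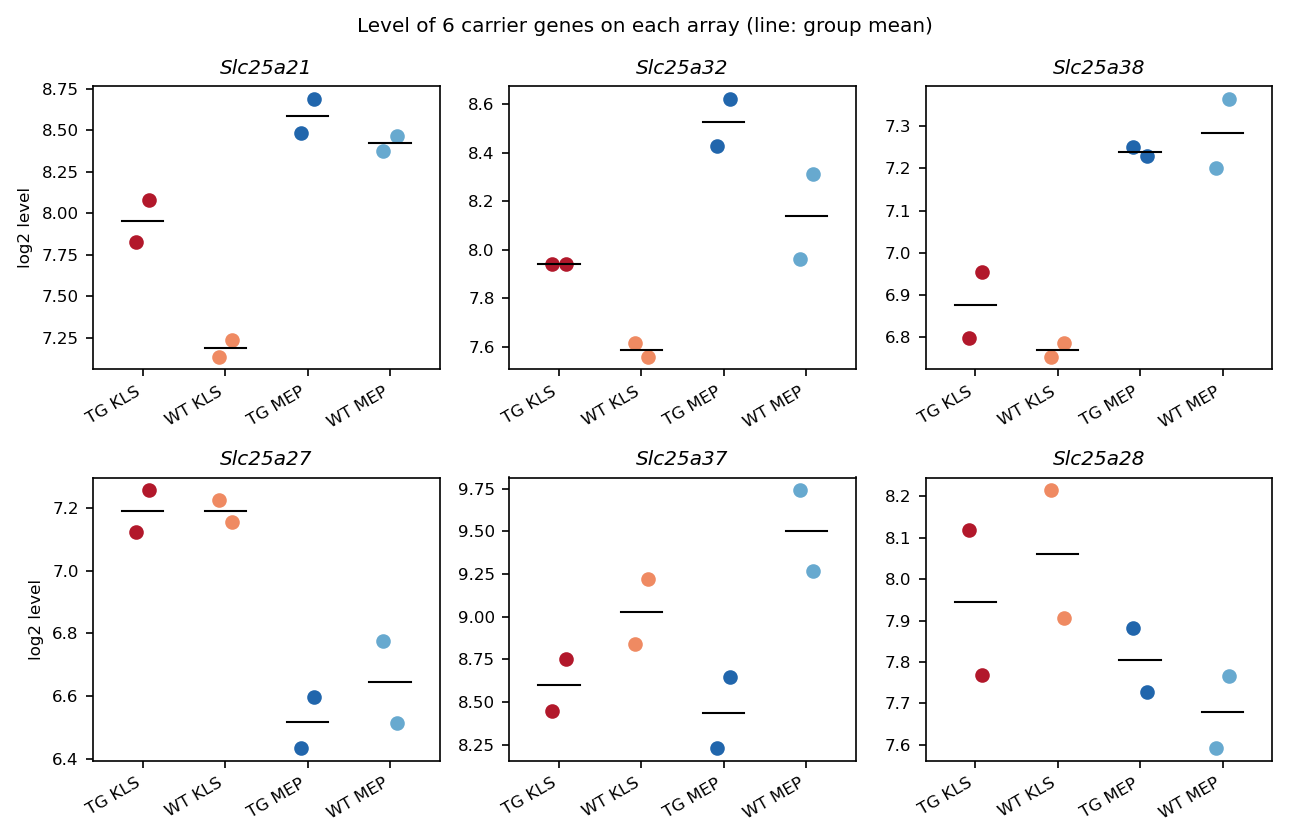
Log2 level (vertical axis, its range set for each gene) of 6 carriers on each of the 8 arrays, with groups on the horizontal axis. Points are arrays and lines are group means. Slc25a21 and Slc25a32 lie lower and Slc25a27 higher on the KLS arrays than on the MEP arrays, and Slc25a37 lies lower on the TG than on the WT arrays of each cell type.

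With the called carriers included, 10 of 46 had an unadjusted p under 0.05 between the cell types (21.7%, against 14.3% of all genes), 2 of them higher (8.02% of all genes) and 8 lower in KLS cells (6.24%). Arrays of the cell types did not overlap for 10 carriers (21.7%, against 9.04% of all genes). Of these, 3 lay higher in KLS cells, as did 4.41% of all genes (Slc25a4, Slc25a27 and Slc25a45), and 7 lay lower, as did 4.63% of all genes (Slc25a3, Slc25a16, Slc25a21, Slc25a32, Slc25a38, Slc25a40 and Slc25a44). Over all 46 carriers the median difference was -0.04, with 19 above 0 and 27 below 0, beside a median of 0.01 over all genes.

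Slc25a38, the mitochondrial glycine carrier of haem synthesis, had 6.80 and 6.95 in TG KLS cells against 6.75 and 6.79 in WT KLS cells, with 7.25 and 7.23 in TG MEP cells against 7.20 and 7.36 in WT MEP cells. The cell types did not overlap and the replicates lay close together. Its difference of -0.44 ± 0.10 (SE) missed the threshold (adjusted p = 0.0650, limma). Slc25a16, a carrier linked to coenzyme A transport, had 6.90 and 6.54 in TG KLS cells against 6.79 and 6.41 in WT KLS cells, with 7.25 and 7.26 in TG MEP cells against 6.92 and 7.06 in WT MEP cells. The KLS arrays were again the lower ones, by 0.46 ± 0.13 (SE) on the log2 scale, and were not called (adjusted p = 0.122, limma). Slc25a45 had 6.99 and 6.98 in TG KLS cells against 7.001 and 7.30 in WT KLS cells, with 6.64 and 6.88 in TG MEP cells against 6.77 and 6.87 in WT MEP cells. It lay higher in KLS cells by a log2 difference of 0.28 ± 0.11 (SE), also not called (adjusted p = 0.299, limma). Slc25a4, the ADP/ATP carrier ANT1 of muscle and heart, had 9.95 and 9.69 in TG KLS cells against 9.67 and 9.71 in WT KLS cells, with 9.52 and 9.66 in TG MEP cells against 9.60 and 9.59 in WT MEP cells. Its KLS arrays were higher by a narrow margin, with a difference of 0.17 ± 0.10 (SE, adjusted p = 0.564, limma).

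By role, the carriers of nucleotides, cofactors and glutathione lay mostly below 0: 7 of 8 were lower in KLS cells, with a median log2 difference of -0.17, 1 called (Slc25a32; 0.396% of all genes were called lower) and 4 lower with an unadjusted p under 0.05 (6.24% of all genes, the share to set beside the other roles too). Besides Slc25a32 and Slc25a16, these 4 were Slc25a40, a glutathione carrier, at -0.38 ± 0.11 (SE) and Slc25a51, the NAD carrier, at -0.26 ± 0.11 (SE). The 10 carriers grouped under adenine nucleotides and phosphate hold those of ATP export and phosphate uptake together with Slc25a17 and Slc25a42, which carry coenzyme A. They had 0 called in limma, 1 lower with an unadjusted p under 0.05 (Slc25a17, of peroxisomes, at -0.24 ± 0.10, SE) and a median of -0.07. Slc25a3, the phosphate carrier that feeds ATP synthase, had the smallest spread of all carriers over the 8 arrays (SD 0.0913) and a difference of -0.12 ± 0.10 (SE). Of the 9 amino acid carriers 0 were called in limma and 2 had an unadjusted p under 0.05, Slc25a38 and Slc25a44, the carrier of branched-chain amino acids, at -0.39 ± 0.12 (SE). The 3 carriers of di- and tricarboxylates, among them the citrate carrier Slc25a1, all lay between 0.02 and 0.19, with 0 called and 0 with an unadjusted p under 0.05 in limma. Slc25a20, the carnitine-acylcarnitine carrier of fatty acid oxidation, gave 0.10 ± 0.12 (SE), and Slc25a46, an outer-membrane member tied to mitochondrial fission and fusion, gave -0.17 ± 0.13 (SE). Among the other uncoupling-protein-like members, Slc25a14 gave 0.03 ± 0.13 (SE) and Slc25a30 gave -0.25 ± 0.14 (SE).

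**Figure D2:**
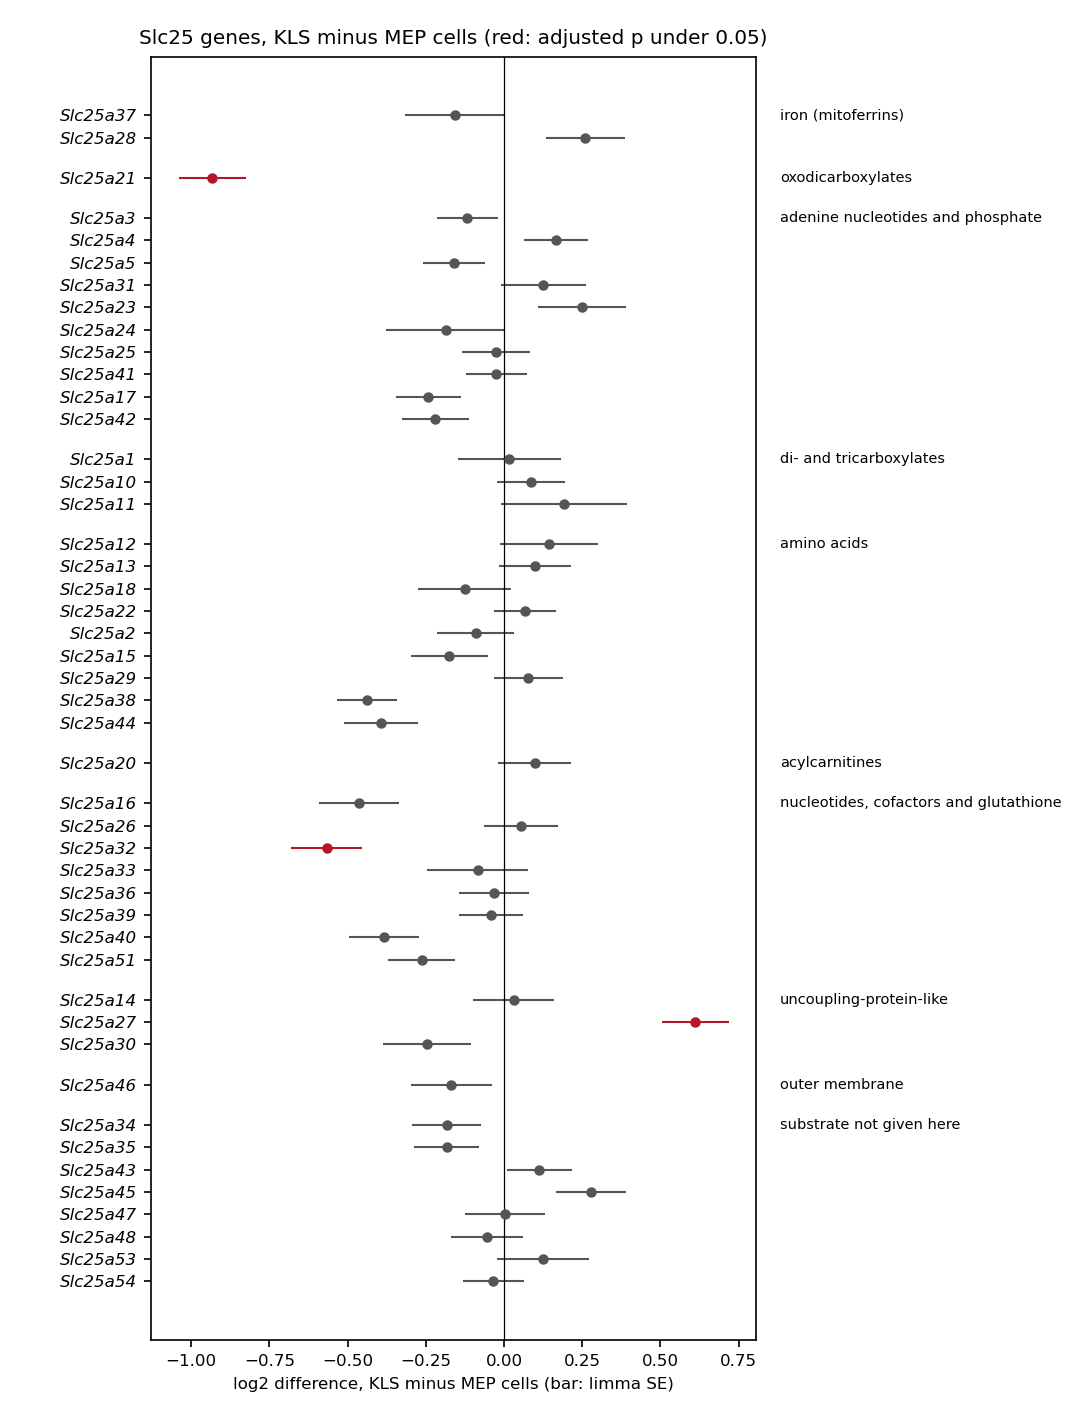
Log2 difference of each of the 46 carriers, KLS minus MEP cells averaged over genotypes (horizontal axis), grouped by role. Points are limma estimates over 8 arrays and bars are standard errors, with the 3 called carriers in red: Slc25a21 at -0.93, Slc25a32 at -0.57 and Slc25a27 at 0.61.

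Mitoferrin 1, Slc25a37 (Entrez gene 67712, probe set 10421172), the iron importer of developing red cells, was lower in TG arrays of both cell types without being called. Its log2 levels were 8.45 and 8.75 in TG KLS cells against 8.84 and 9.22 in WT KLS cells, and 8.23 and 8.65 in TG MEP cells against 9.74 and 9.27 in WT MEP cells. No TG array reached a WT array in either cell type, and all 4 TG arrays lay below all 4 WT arrays. The difference was -0.43 ± 0.23 (SE) in KLS cells (unadjusted p = 0.0920, adjusted p = 1.00, limma), and ran from -0.62 without WT KLS replicate 1 to -0.24 without WT KLS replicate 2. In MEP cells it was -1.06 ± 0.23 (SE, 95% interval -1.58 to -0.55), or 2.09-fold, with an unadjusted p = 0.00123 and an adjusted p = 1.00 in limma. Averaged over both cell types it was -0.75 ± 0.16 (SE, unadjusted p = 0.00128, adjusted p = 0.999, limma), and the KLS minus MEP difference of the genotype effects was 0.63 ± 0.32 (SE, unadjusted p = 0.0811, adjusted p = 1.00, limma). Leaving out 1 array moved the MEP value between -1.30 (without WT MEP replicate 2) and -0.83 (without WT MEP replicate 1, whose lymphoid, stem and multipotent markers stood apart). Its adjusted p was 0.0899 in limma without WT MEP replicate 2 and 0.453 to 1.00 without each of the other arrays. The KLS minus MEP difference of the effects ran from 0.40 without WT MEP replicate 1 to 0.87 without WT MEP replicate 2. Between the cell types it differed by -0.16 ± 0.16 (SE, adjusted p = 0.791, limma).

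Mitoferrin 2, Slc25a28 (Entrez gene 246696, probe set 10467852), the iron importer of most other cells, showed no such separation. It had 8.12 and 7.77 in TG KLS cells against 8.21 and 7.91 in WT KLS cells, and 7.88 and 7.73 in TG MEP cells against 7.59 and 7.77 in WT MEP cells. The genotypes overlapped in both cell types. Its genotype difference was -0.12 ± 0.18 (SE, 95% interval -0.52 to 0.29) in KLS cells and 0.12 ± 0.18 (SE, 95% interval -0.28 to 0.53) in MEP cells, and the average of 0.0041 changed sign between scalings. It was 0.26 ± 0.13 (SE) higher in KLS than in MEP cells, with overlapping arrays and no call (adjusted p = 0.406, limma). Its promoter is shown beside those of Slc25a21 because it holds a GATA-type match, given in capitals on the strand of the gene, 112 bases before the start. The window is chr19:43674882-43675131, minus strand, from RefSeq on GRCm38.p6, and the capitals read AGATAG on the other strand.
Slc25a28: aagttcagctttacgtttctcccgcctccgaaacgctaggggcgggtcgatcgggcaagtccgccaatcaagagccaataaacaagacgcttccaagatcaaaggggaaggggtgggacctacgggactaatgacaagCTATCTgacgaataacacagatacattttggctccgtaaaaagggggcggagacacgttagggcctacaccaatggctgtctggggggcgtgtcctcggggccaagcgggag
Slc25a37 was not among the promoters in the table.

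Around the mitoferrins, 16 of 20 listed genes of haem and iron-sulphur synthesis were measured. Between the cell types 13 of these 16 were below 0 (lower in KLS cells), 9 of them with an unadjusted p under 0.05 (6.24% of all genes), and 1 was called lower (0.396% of all genes): Abcb6, a porphyrin transporter, at -0.68 ± 0.11 (SE, adjusted p = 0.0347, limma). Alas1, the housekeeping enzyme of the first haem step, stood on the other side at 1.15 ± 0.26 (SE, adjusted p = 0.0692, limma). For the genotype 0 of 16 were called in limma, and 1 had an unadjusted p under 0.05 in MEP cells: Alas2, the erythroid enzyme of the first haem step. Alas2 had 8.40 and 8.44 in TG KLS cells against 8.58 and 9.27 in WT KLS cells, and 8.11 and 8.37 in TG MEP cells against 9.63 and 9.26 in WT MEP cells. Like Slc25a37 it lay lower in every TG array than in every WT array, by -0.51 ± 0.24 (SE) in KLS and -1.20 ± 0.24 (SE) in MEP cells. Slc4a1, the anion exchanger of the red cell membrane and an erythroid marker, differed by -0.996 ± 0.35 (SE) in KLS and -1.46 ± 0.35 (SE) in MEP cells. The erythroid marker list of 10 measured genes had 0 called by genotype in limma. In MEP cells 4 of 10 were below 0, with a median difference of 0.01, and 3 lay lower on both TG arrays (17.2% of all genes). In KLS cells 6 of 10 were below 0, with a median of -0.10, and 5 lay lower on both TG arrays (17.2% of all genes). The list's level, which includes Alas2 and Slc4a1, was lower on every TG array than on every WT array of the same cell type. Slc4a1 had the lowest difference of the 10 genes in both cell types. Above 0 were 6 of 10 in TG MEP and 4 of 10 in TG KLS cells, so the level does not describe the members alike. The list's mean log2 level was 9.61 and 9.69 in TG MEP cells against 9.88 and 9.92 in WT MEP cells, and 9.26 and 9.41 in TG KLS cells against 9.43 and 9.54 in WT KLS cells. Its log2 summed level was 14.15 and 14.17 in TG MEP cells against 14.21 and 14.24 in WT MEP cells, and 13.86 and 13.88 in TG KLS cells against 13.89 and 13.91 in WT KLS cells. The parts that erythroid, neutrophil, lymphoid or stem and multipotent cells had in the Slc25a37 difference were not tested.

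**Figure D3:**
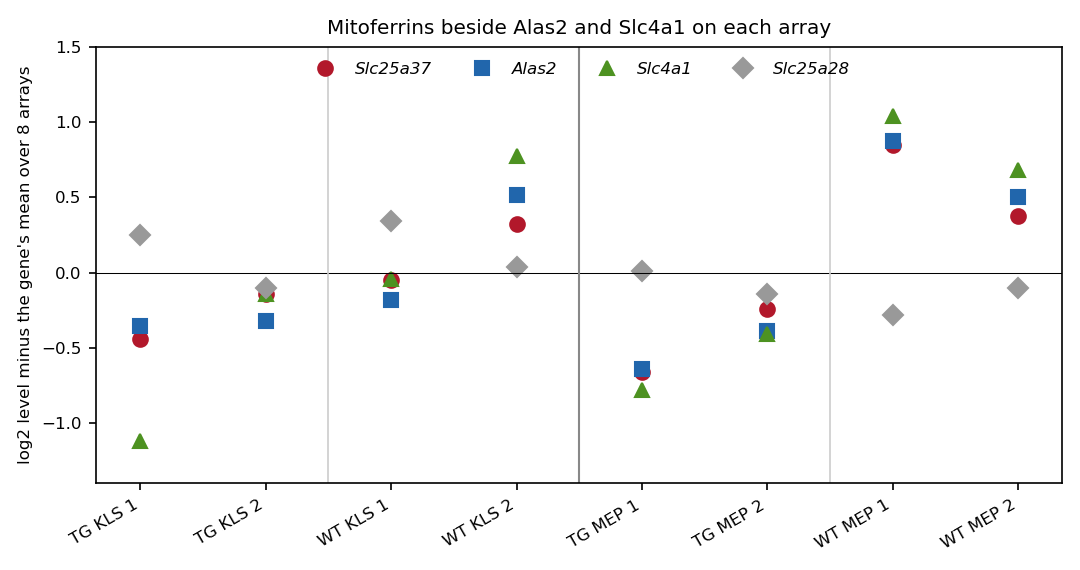
Log2 level minus the gene's mean over the 8 arrays (vertical axis) for Slc25a37, Alas2, Slc4a1 and Slc25a28 on each array (horizontal axis). Slc25a37, Alas2 and Slc4a1 lie below 0 on all 4 TG arrays and above 0 on both WT MEP arrays, while Slc25a28 follows no such order.

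Over the whole family, the genotype difference in KLS cells was called for 0 of 46 carriers by limma (0% of all genes), and 4 of 46 had an unadjusted p under 0.05 (8.7%, against 2.51% of all genes), 3 above 0 (1.47%) and 1 below 0 (1.03%). Arrays of TG and WT KLS cells did not overlap for 23 carriers (50%, against 29.0% of all genes), 12 higher (11.7%) and 11 lower (17.2%) in TG cells, and the median difference was 0.03 beside -0.02 over all genes. Slc25a21 gave the greatest of these differences, 0.76 ± 0.15 (SE) above 0 in TG KLS cells (unadjusted p = 0.000765, adjusted p = 1.00, limma), and in MEP cells it gave 0.16 ± 0.15 (SE), which was 0.062 without TG MEP replicate 2 and 0.27 without TG MEP replicate 1. The difference between these genotype effects was 0.60 ± 0.22 (SE, unadjusted p = 0.0217, adjusted p = 1.00, limma) and was not called. The value in KLS cells is known from earlier work on these arrays and is no independent support.

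Slc25a2, an ornithine carrier, had 6.07 and 5.99 in TG KLS cells against 5.58 and 5.55 in WT KLS cells, and 5.58 and 6.07 in TG MEP cells against 5.99 and 5.90 in WT MEP cells. The genotypes were apart in KLS cells and overlapped in MEP cells. It differed by 0.46 ± 0.17 (SE, unadjusted p = 0.0267, adjusted p = 1.00, limma) in KLS cells, and the KLS minus MEP difference of the genotype effects was 0.58 ± 0.25 (SE, unadjusted p = 0.0432, adjusted p = 1.00, limma), or 0.34 without TG MEP replicate 1. Slc25a17, the peroxisomal carrier of coenzyme A and related cofactors, had 8.10 and 7.86 in TG KLS cells against 7.59 and 7.69 in WT KLS cells, and 7.97 and 8.12 in TG MEP cells against 8.09 and 8.03 in WT MEP cells. The genotypes did not overlap in KLS cells, where they differed by 0.34 ± 0.15 (SE; 0.22 without TG KLS replicate 1), against -0.02 ± 0.15 (SE) in MEP cells. Slc25a42, a mitochondrial coenzyme A carrier, ran the other way, with 6.77 and 7.06 in TG KLS cells against 7.29 and 7.38 in WT KLS cells, and 7.34 and 7.41 in TG MEP cells against 7.23 and 7.40 in WT MEP cells. Its TG arrays were the lower ones in KLS cells, by -0.42 ± 0.15 (SE; -0.27 without TG KLS replicate 1), and overlapped with the WT arrays in MEP cells, at 0.06 ± 0.15 (SE). The difference between these effects was -0.48 ± 0.21 (SE, unadjusted p = 0.0526, adjusted p = 1.00, limma). Slc25a18, a glutamate carrier, had 6.08 and 6.45 in TG KLS cells against 6.78 and 6.52 in WT KLS cells, and 6.15 and 6.71 in TG MEP cells against 6.73 and 6.74 in WT MEP cells. It lay lower on the TG arrays of both cell types, by -0.39 ± 0.21 (SE) in KLS and -0.31 ± 0.21 (SE) in MEP cells, and the KLS value was -0.20 without TG KLS replicate 1 and -0.57 without TG KLS replicate 2. Slc25a31, the ADP/ATP carrier of the testis, had 3.85 and 4.00 in TG KLS cells against 4.06 and 4.32 in WT KLS cells, and 3.85 and 3.82 in TG MEP cells against 3.77 and 4.29 in WT MEP cells. It lay among the dimmest 30% of genes, and its genotypes were apart in KLS cells (-0.27 ± 0.19, SE, and -0.14 without WT KLS replicate 2) and overlapped in MEP cells. None of these was called (adjusted p = 1.00, limma).

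In MEP cells limma likewise called 0 of 46 carriers by genotype (0% of all genes), with 5 of 46 at an unadjusted p under 0.05 (10.9%, against 3.71% of all genes), 3 above 0 (1.24%) and 2 below 0 (2.47%). TG and WT MEP arrays did not overlap for 14 carriers (30.4%, against 30.2% of all genes), 7 higher (13.0%) and 7 lower (17.2%), and the median was -0.04 beside -0.01 over all genes. Slc25a37 had the greatest difference. Slc25a32 came out higher in TG MEP cells by 0.39 ± 0.16 (SE) and in TG KLS cells by 0.35 ± 0.16 (SE), with an average of 0.37 ± 0.11 (SE, unadjusted p = 0.00935, adjusted p = 0.999, limma). The MEP value was 0.21 ± 0.17 (SE) without WT MEP replicate 1. Slc25a51, the NAD carrier, had 9.38 and 9.33 in TG MEP cells against 9.84 and 9.64 in WT MEP cells, and 9.29 and 9.04 in TG KLS cells against 9.46 and 9.34 in WT KLS cells. Its TG arrays were below its WT arrays in both cell types, by -0.38 ± 0.15 (SE) in MEP and -0.24 ± 0.15 (SE) in KLS cells, and the MEP value was -0.28 ± 0.18 (SE) without WT MEP replicate 1.

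Slc25a41, an ATP-Mg/phosphate carrier, had 6.51 and 6.39 in TG MEP cells against 6.05 and 6.22 in WT MEP cells, and 6.34 and 6.28 in TG KLS cells against 6.19 and 6.25 in WT KLS cells. All 4 TG arrays lay above all 4 WT arrays, but by a narrow margin: 6.28 on TG KLS replicate 2 against 6.25 on WT KLS replicate 2. The difference was 0.08 ± 0.14 (SE) in KLS cells and 0.20 ± 0.10 (SE, unadjusted p = 0.0713, limma) on average. Slc25a54 was at 4.70 and 4.52 in TG MEP cells against 4.30 and 4.21 in WT MEP cells, and at 4.39 and 4.45 in TG KLS cells against 4.34 and 4.42 in WT KLS cells. Its MEP difference was 0.35 ± 0.14 (SE), in a gene among the dimmest 30%. Slc25a34 was at 6.02 and 5.94 in TG MEP cells against 5.56 and 5.75 in WT MEP cells, and at 5.41 and 5.69 in TG KLS cells against 5.62 and 5.80 in WT KLS cells. Its MEP difference was 0.33 ± 0.16 (SE). In KLS cells, TG and WT arrays overlapped for both genes, and the difference between the genotype effects was not called for either. Slc25a23, another ATP-Mg/phosphate carrier, had 5.39 and 5.74 in TG MEP cells against 6.09 and 5.79 in WT MEP cells, and 6.11 and 5.81 in TG KLS cells against 6.20 and 5.89 in WT KLS cells. Slc25a11, the oxoglutarate-malate carrier of the malate-aspartate shuttle, had 7.28 and 7.80 in TG MEP cells against 8.21 and 7.82 in WT MEP cells, and 8.34 and 7.57 in TG KLS cells against 8.16 and 7.82 in WT KLS cells. In both genes the TG MEP arrays were the lower ones by a narrow margin and the replicates spread widely, with differences of -0.38 ± 0.20 (SE) for Slc25a23 and -0.47 ± 0.28 (SE) for Slc25a11. These were -0.20 and -0.21 without TG MEP replicate 1, and -0.55 and -0.73 without TG MEP replicate 2. None of these differences was called (adjusted p = 1.00 in MEP cells, limma).

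The TG and WT arrays were apart in the same direction in both cell types for 6 carriers (13.0%, against 4.98% of all genes). In TG cells Slc25a21, Slc25a32 and Slc25a41 were the higher ones (2.08% of all genes), and Slc25a18, Slc25a37 and Slc25a51 the lower ones (2.89%). Averaged over both cell types limma called 0 of 46 (0% of all genes), with 5 carriers at an unadjusted p under 0.05 (10.9%, against 3.26% of all genes): Slc25a21 and Slc25a32 above 0 (1.19%), and Slc25a37, Slc25a51 and Slc25a18 below it (2.07%). All 4 TG arrays lay apart from all 4 WT arrays for 2 carriers (4.35%, against 1.60% of all genes), Slc25a41 on the higher side (0.582%) and Slc25a37 on the lower (1.02%). The difference between the genotype effects of the cell types was called for 0 of 46 (0% of all genes) by limma, with 2 carriers at an unadjusted p under 0.05 (4.35%, against 2.27% of all genes), Slc25a21 and Slc25a2.

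**Figure D4:**
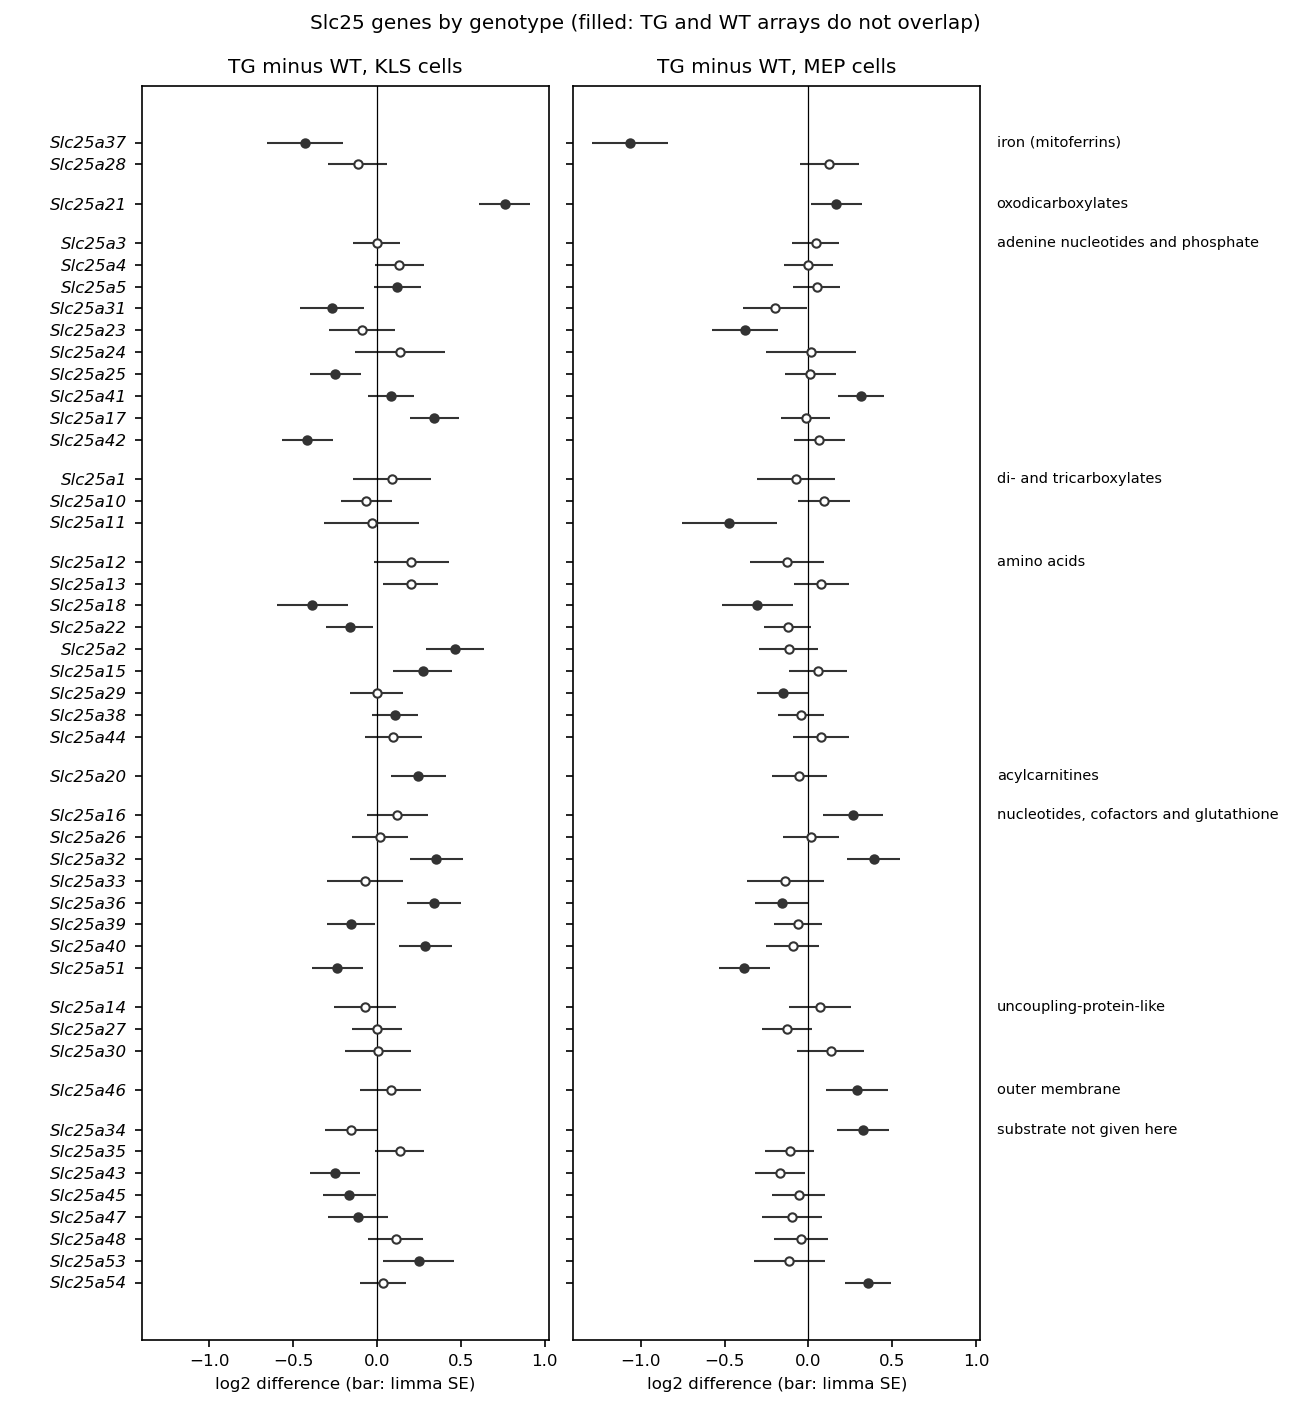
Log2 difference of each of the 46 carriers, TG minus WT, in KLS cells (left) and MEP cells (right), grouped by role. Points are limma estimates, bars are standard errors, and filled points mark the 23 carriers in KLS and the 14 in MEP cells whose TG and WT arrays do not overlap. Slc25a37 lies furthest below 0 in MEP cells, at -1.06, and Slc25a21 furthest above 0 in KLS cells, at 0.76.

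Carriers reach the inner membrane through the TOM pore, the small TIM chaperones and the TIM22 complex, and 15 of 16 listed genes of this route were measured. By limma 0 of 15 were called in any of the 5 comparisons. Between the cell types 1 was above and 1 below 0 at an unadjusted p under 0.05: Tomm6, a small TOM subunit, at 0.31 ± 0.09 (SE), and Tomm70a, the receptor for carrier precursors, at -0.34 ± 0.10 (SE). By genotype, TG and WT arrays did not overlap for 5 of 15 in MEP cells (33.3%, against 30.2% of all genes). In KLS cells it was also 5 of 15 (33.3%, against 29.0% of all genes). Of each 5, 3 were higher and 2 lower in TG cells (13.0% and 17.2% of all genes in MEP, 11.7% and 17.2% in KLS cells). For most of the 15 genes replicate 1 was the lower WT array in both cell types. Most TG means did not exceed the level of WT replicate 2 alone. Differences from the WT mean were above 0 for 12 of 15 in TG MEP and 11 of 15 in TG KLS cells. Over all 19938 genes, 9569 and 9123 were above 0. The medians of the 15 genes were 0.15 and 0.09, beside -0.01 and -0.02 over all genes. Tomm6 ran the other way, at -0.40 ± 0.13 (SE, unadjusted p = 0.0132, adjusted p = 1.00, limma) in KLS cells and -0.30 ± 0.09 (SE, unadjusted p = 0.00936, adjusted p = 0.999, limma) on average. Of the lysine and 2-oxoadipate pathway that Slc25a21 serves, 8 of 8 genes were measured and 0 were called by limma in any comparison. Gcdh, the glutaryl-CoA dehydrogenase of that pathway, lay lower in KLS than in MEP cells by 0.42 ± 0.14 on the log2 scale (SE, adjusted p = 0.200, limma), the 1 member with an unadjusted p under 0.05. Among 9 measured genes of the malate-aspartate shuttle and urea cycle 0 were called by limma, and Got1, the cytosolic aspartate transaminase, had the only unadjusted p under 0.05, at 0.51 ± 0.20 (SE) in TG against WT KLS cells.

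Other routes across the mitochondrial membranes, of which 16 of 19 listed genes were measured, gave 0 calls by limma. Between KLS and MEP cells Tspo2, an erythroid translocator protein, was at -0.54 ± 0.19 (SE) and Mpc1, a subunit of the pyruvate carrier, at -0.33 ± 0.13 (SE). Arrays of the cell types overlapped for both genes. Tspo2 was at 7.48 on WT KLS replicate 1 and at 7.86 to 8.27 on the other KLS arrays, against 8.27 on WT MEP replicate 1. Family members filed under other symbols were measured for 4 of 5 (Ucp1, Ucp3, Mtch1 and Mtch2), with 0 called by limma. Ucp1, the uncoupling protein of brown fat, ranged from 4.82 to 5.30 over the 8 arrays. Mtch2, an outer-membrane insertase, was the 1 of 4 with an unadjusted p under 0.05 between the cell types, at -0.26 ± 0.11 (SE, adjusted p = 0.344, limma).

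More than 1 probe set carried the symbol of 3 carriers. The 3 probe sets of Slc25a5, the ADP/ATP carrier ANT2, gave KLS minus MEP differences of -0.16, -0.16 and -0.12 and thus ran alike. The 2 probe sets of Slc25a40 gave -0.38 and -0.52. Those of Slc25a36, a pyrimidine nucleotide carrier, disagreed by genotype in MEP cells, at -0.16 for the brighter and 0.08 for the other, and gave 0.34 and 0.17 in KLS cells, so no direction is given for this gene in MEP cells.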

How the data were processed

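Expression came from 8 Affymetrix arrays in 4 groups of 2, named by the sample titles. The deposited values run from 1.71 to 14.0 over 35556 probe sets, which is a log2 scale. The authors' tool was Affymetrix Expression Console, per the submitters' processing notes (no version). The sources used here do not say how it summarized and normalized the values. The number of arrays limits the precision. Array medians spanned 0.106, and the arrays were quantile normalized here. Probe sets with several symbols (1621) or no entry (12146) in the platform annotation were left out. The brightest probe set of each gene gave 19938 genes. Symbols were looked up by Entrez identifier in a RefSeq table of GRCm38.p6, which changed 0. Its coordinates and sequences were used for promoters alone.

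Tests used limma 3.58.1 (lmFit, contrasts.fit, eBayes) under R 4.3.3, with a mean for each group over all 8 arrays, 4 residual and 4.82 prior degrees of freedom. The 5 comparisons were TG minus WT in each cell type and their average, the difference of these genotype effects, and KLS minus MEP over both genotypes. All p-values were two-sided and adjusted over all genes. The procedure was checked on simulated data. The labels name no batch. Replicates are separate pooled preparations.

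Every carrier may be named by its role. Values per array are given for the mitoferrins, Slc25a21, called carriers, the 4 carriers with the largest non-overlapping difference in each direction, and the 3 with the smallest p for the average and for the difference of effects; genes of other lists are named when called or among the 2 with the smallest p, and Slc4a1, Alas1 and Ucp1 were added with their values known. The carriers, roles and lists were chosen with earlier results of these data known. Alternatives were median centring, the deposited values, dropping the dimmest 30% of genes, the mean over probe sets, an intensity trend, robust variances, the replicate block, an adjusted p under 0.10, arrays of 1 cell type alone and leaving out each array.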

Additional observations from a re-analysis of the deposited data

How the results depend on the processing

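The count of carriers called between KLS and MEP cells was 3 in the main analysis and 1 (Slc25a21) with median centring. It ran from 0 to 3 when 1 array was left out: 0 without TG KLS replicate 1, TG MEP replicate 1 or TG MEP replicate 2, and 3 without WT MEP replicate 1. It was 2 on the deposited values, with an intensity trend and with robust variances, 3 without the dimmest 30% of genes and with the mean over probe sets, and 4 at an adjusted p under 0.10. For all genes the count of 319 became 234 on the deposited values, 123 with median centring, 780 at an adjusted p under 0.10 and 1 to 738 with an array left out. With the replicate block, 3 carriers were called and 562 genes in all. Deviations of same-numbered arrays correlated at 0.18 to 0.38 among TG KLS, WT KLS and WT MEP arrays, but at -0.28 to -0.17 between TG MEP and each of these. The sign was thus not shared by all pairs, but it turns on the numbering of the arrays within a group. With the TG MEP numbers exchanged, all pairs would be positive. The main fit holds no term for the replicate. Whether arrays of different groups shared a factor, paired otherwise than by their numbers, was not tested. The genotype comparisons and their difference gave 0 called carriers under each alternative. Over all genes they gave 0 calls too, except without WT MEP replicate 2 (144 in MEP cells, 67 on average and 10 for the difference of effects) and with the replicate block (1 on average).

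Of 609 values over 37 results for single carriers, 578 kept their direction and side of the threshold, 22 lost the call, 1 gained it (Slc25a38 at an adjusted p under 0.10) and 8 changed sign. All 8 were of Slc25a28: its average genotype difference was -0.0059 on the deposited values, -0.0042 with median centring and -0.084 to 0.092 with an array left out, and in KLS cells it ran from -0.29 to 0.059 with an array left out. Slc25a27 was not called with median centring (adjusted p = 0.0717), nor Slc25a32 with median centring (0.0808), the trend (0.0546) or robust variances (0.0502), all in limma. Only the called results, those of Slc25a21, Slc25a27 and Slc25a32 between the cell types, could lose a call, and all 22 losses were theirs. The other results had no call to lose, so the 578 do not show how stable the calls were. The causes of these changes were not tested.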
